A study of Mus musculus with 28 samples.

Results

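H3K4me3 peaks that lay in H3K9me3 domains of wild-type cells were described, and each was followed into the peak lists of Spen knockout cells. The data were ChIP-seq lists from HATX mouse embryonic stem cells (mESCs), a haploid line of mixed genomic background with a doxycycline-inducible Xist transgene, grown in serum and LIF on gelatin. The WT line was compared with Spen KO clone 2 of the same line, which lacks most of the Spen gene, so the knockout was represented by 1 clone. Whether doxycycline was given before ChIP is not stated in the sources used here. Each genotype and mark had 2 libraries, described in the study's methods as technical replicates, and 1 combined list for H3K4me3, H3K27Ac and H3K9me3. Members were autosomal WT H3K4me3 peaks under 5000 bp wide that shared at least 1 bp with a WT H3K9me3 domain and none with a WT H3K27Ac peak. Of 34823 WT H3K4me3 peaks, 33695 were autosomal and 2868 of these (8.51%) were members. The WT lists chose the members, so their WT marks are a description, and a member could only be kept in or be absent from the Spen KO lists.

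H3K4me3 is laid down at active and CpG-rich promoters, and H3K27Ac marks active promoters and enhancers. H3K9me3 marks silent heterochromatin, where in mESCs it is deposited by enzymes such as Setdb1 on endogenous retroviruses, on the promoters of young LINE-1 elements and on 1 allele of imprinted control regions. Spen is an RNA-binding corepressor needed for Xist-mediated silencing. Because ChIP-seq pools many cells, overlap of both marks in the lists does not say whether they sat on the same DNA molecule.

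Most members shared sequence with each other. Members were grouped by the 31-base word found in most of them, then by the word most common among those left over, up to 6 words. The words are shown because they define the groups compared below. Each is written 5′ to 3′, with CpG dinucleotides in capitals.
Word 1: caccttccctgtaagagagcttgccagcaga
Word 2: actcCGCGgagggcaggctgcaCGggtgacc
Word 3: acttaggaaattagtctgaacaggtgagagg
Word 4: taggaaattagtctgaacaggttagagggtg
Word 5: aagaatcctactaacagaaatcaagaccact
Word 6: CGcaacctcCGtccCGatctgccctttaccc
Word 1 defined a group of 1310 members, word 2 of 351, word 3 of 256, word 4 of 137, word 5 of 54 and word 6 of 51. The remaining 709 members (24.7%) held none of the 6. No repeat annotation was used here, and the repeat family of each word was not determined.

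Examples with few multi-copy words were also taken, and the last of them is itself a run of short repeats. In each class of fate in Spen KO, the member with the highest H3K4me3 score whose central 200 bases touched no annotated exon and held under 10% of multi-copy words is shown, read from the plus strand of mm9, again with CpG in capitals.
Both marks kept, chr14:12387154-12387353, in the gene body of Ptprg: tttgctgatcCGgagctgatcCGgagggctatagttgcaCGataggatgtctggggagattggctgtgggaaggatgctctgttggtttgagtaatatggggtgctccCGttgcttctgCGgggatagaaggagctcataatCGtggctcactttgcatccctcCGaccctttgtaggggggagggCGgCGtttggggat
H3K4me3 alone kept, chr11:5965108-5965307, in the gene body of Camk2b: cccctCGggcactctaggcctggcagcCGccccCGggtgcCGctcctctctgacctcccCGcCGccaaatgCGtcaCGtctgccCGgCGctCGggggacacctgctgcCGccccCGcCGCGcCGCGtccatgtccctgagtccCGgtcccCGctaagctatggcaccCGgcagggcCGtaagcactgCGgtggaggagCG
H3K9me3 alone kept, chr16:91199919-91200118, 25.8 kb from the TSS of Olig2: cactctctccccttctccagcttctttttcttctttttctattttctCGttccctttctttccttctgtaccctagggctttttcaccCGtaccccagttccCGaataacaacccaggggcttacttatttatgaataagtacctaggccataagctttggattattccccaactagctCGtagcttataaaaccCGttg
Neither kept, chr3:101711509-101711708, in the gene body of Slc22a15: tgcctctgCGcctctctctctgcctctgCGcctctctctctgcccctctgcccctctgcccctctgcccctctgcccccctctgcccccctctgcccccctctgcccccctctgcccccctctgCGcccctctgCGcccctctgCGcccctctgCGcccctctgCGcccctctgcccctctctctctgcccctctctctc
These windows held 9, 23, 5 and 7 CpG dinucleotides, respectively. The fate is that of the whole peak, not of the printed window. The windows at Ptprg and Camk2b came from peaks with a TSS within 1000 bp. Both lay outside the WT H3K9me3 domain, which touched only the margin of each peak.

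Genes of the pluripotent state carried active marks. All 6 of 6 pluripotency genes examined (Nanog, Sox2, Esrrb, Zfp42, Klf4 and Tdgf1) had H3K4me3 and H3K27Ac peaks at a TSS in both genotypes, and none had a member. Within Spen itself the lists held 4 WT and 6 Spen KO H3K4me3 peaks. Peak lists hold no read coverage over the deleted part, so they do not check the genotype. Depth per library is unknown, since the lists hold no read counts. The Spen KO lists held fewer H3K4me3 peaks than the WT lists (31091 against 34823), fewer H3K27Ac peaks (11932 against 13922) and more H3K9me3 domains (70268 against 53745). The Spen KO domains were narrower, with a median of 3800 bp against 5400 bp, and covered 371 Mb against 394 Mb in WT.

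Members had a median score close to that of all autosomal H3K4me3 peaks, with fewer high scores, and were narrower. The lists give 1 value for each library and peak, and the mean of both values is called the score. Values were not scaled between lists, so a change in a value and a difference in depth cannot be told apart. The median score was 24.4 for members and 24.1 for all autosomal peaks. Values of the 2 libraries had medians of 24.3 and 23.0 over the members, and the larger value was typically 1.22 times the smaller. The interquartile range of member widths was 719 to 1358 bp around a median of 1000 bp, against 1476 bp for all autosomal peaks. The widest member, chr15:79088612-79093446, spanned 4835 bp. Beyond the width limit, 4 otherwise matching peaks spanned 5177 to 5350 bp, and all 4 overlapped a Spen KO H3K4me3 peak while 1 overlapped a Spen KO H3K9me3 domain. Just outside the domains, 749 narrow peaks without H3K27Ac lay within 1000 bp of a domain and had a median score of 24.4.

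Members were rich in CpG and in multi-copy sequence. A 300-base window at the centre of each peak held a median of 17 CpG dinucleotides in members and 10 in all autosomal peaks, and the median GC content was 63.7% against 56.7%. Copy number was taken from 31-base words, and a window with 50% or more of them found at least 10 times in mm9, counting both strands, is here called multi-copy. By that measure 2241 of 2868 members (78.1%, Wilson 95% interval 76.6 to 79.6) were multi-copy, against 3355 of all 33695 autosomal peaks (9.96%). All multi-copy autosomal peaks had the same medians as members, with 17 CpG and 63.7% GC. Outside multi-copy sequence the medians were 12 CpG and 58% GC in members, against 9 and 55.7% in all autosomal peaks. Seen the other way, 67.7% of all multi-copy H3K4me3 peaks overlapped a WT H3K9me3 domain, against 2.88% of the peaks outside multi-copy sequence. In multi-copy sequence, reads can map to several copies, and the sources do not state which alignments the lists came from, so the value at a single copy is uncertain. The part of read mapping in these results was not tested.

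Short motifs were less common in members than in all autosomal peaks, but not among peaks outside multi-copy sequence. TGCCGC, the hexamer bound by the imprint-protecting zinc finger protein Zfp57 when methylated, was found on either strand in the central 300 bases of 149 members (5.20%), against 12.6% of all autosomal peaks. Members outside multi-copy sequence held it in 96 of 627 windows (15.3%) and multi-copy members in 53 of 2241 (2.37%). For all autosomal peaks the shares were 13.7% outside multi-copy sequence and 1.88% in it. The octamer ATGCAAAT, a site of Oct4 and other POU factors, was found in 9 members (0.314%), all outside multi-copy sequence, and in 0.887% of all autosomal peaks. Outside multi-copy sequence it was in 1.44% of members (0.757 to 2.71) and 0.916% of all autosomal peaks. In multi-copy sequence no member held it, against 0.626% of all autosomal peaks. Both strands were searched, the 2 motifs do not overlap, and a match is a description of the sequence only.

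Domains with members were wider than all autosomal domains, and fewer of them had low scores. The 2868 members lay in 2763 domains, of which 2668 held 1 member, 78 held 2 and 17 held 3, and 7 members touched 2 domains. These domains had a median width of 7000 bp and a median domain score of 165.6, against 5400 bp and 146.9 for all 50521 autosomal domains. The interquartile range of the score was 138.5 to 194.4, against 100 to 193.0. These domains were chosen by holding a peak, and a wider domain has more room for one. Ties for the domain with most members were broken by width. The widest, chr7:20864801-21034800, spanned 170 kb over the vomeronasal receptor genes Vmn1r100 and Vmn1r101. Its 3 members were all multi-copy and kept both marks. The next, chr4:145411401-145489800, spanned 78.4 kb and held Gm13235, and chr4:145686201-145744200 spanned 58.0 kb and held Gm13247 and Gm13251. In these domains 2 of 3 and 3 of 3 members kept H3K4me3, and 3 of 3 and 2 of 3 kept H3K9me3.

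Members lay more often towards the flanks of the domain than in its middle. Of 2868 members, 1915 (66.8%, 65.0 to 68.5) lay wholly inside the domain, 952 (33.2%) crossed 1 edge and 1 reached past both edges. The centre of 385 members (13.4%) was outside the domain. For the 2482 members centred inside, the median distance from the centre to the nearest edge was 1554 bp, and 1 centre lay on the edge. Within 10% of the domain width from either edge there were 661 centres, and the counts of the next classes of equal width were 497, 468, 444 and 413. Of the 385 members centred outside, 107 (27.8%) had a protein-coding TSS within 1000 bp and 36.4% were multi-copy. In each class centred inside, at most 4.99% had such a TSS and at least 80.2% were multi-copy.

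**Figure D1:**
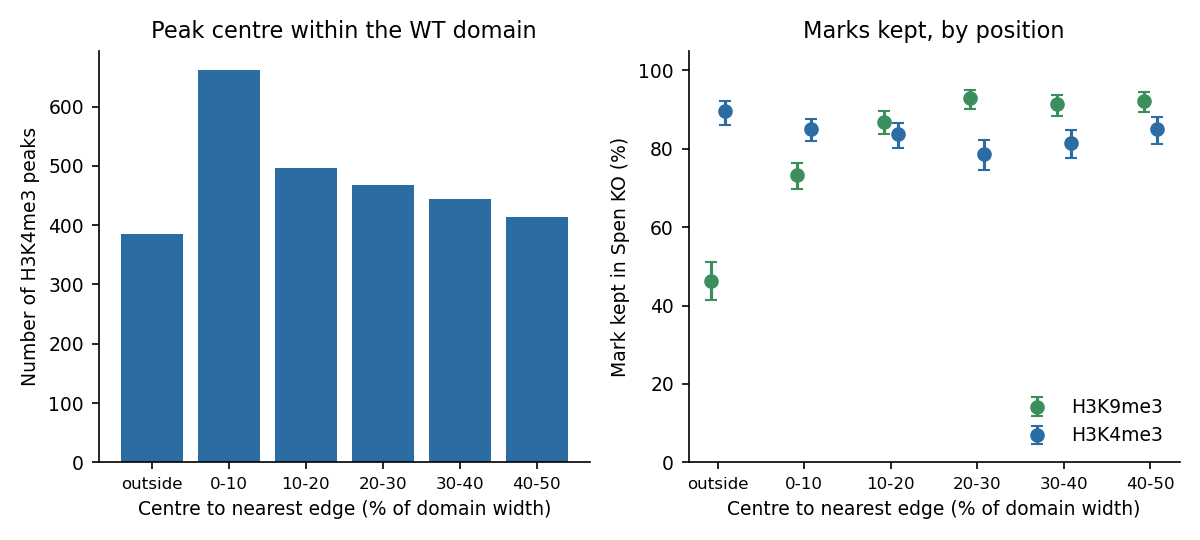
Left, number of members by the distance of the peak centre from the nearest edge of its WT H3K9me3 domain, in percent of the domain width, with centres beyond the edge shown as outside. Right, percent of members in each class that overlapped a Spen KO peak or domain of each mark, with Wilson 95% intervals. The kept share of H3K9me3 went from 46.2% outside to 92.3% in the innermost class, and that of H3K4me3 stayed between 78.6% and 89.6%.

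Words 1, 3 and 4 occurred together in many peaks. Of 1214 members with word 3, 958 also held word 1, on the same strand in 957 of them and before word 1 in 957. All 284 members with words 1 and 4 held both on the same strand, with word 4 before word 1. Words 3 and 4 shared 10 members, all on the same strand, with word 4 first in 4 of them. No member held word 2, 5 or 6 together with another of the 6 words. Words 2, 3 and 4 recurred within a peak. In the group of word 2, 276 of 351 members (78.6%) held 2 or more copies, with a median step of 206 bases (interquartile range 205 to 206). The step was 212 bases in the group of word 3 and 214 bases in the group of word 4. As background, the promoters of young mouse LINE-1 elements are built of short tandem monomers, but whether these words belong to such monomers was not determined.

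On the printed strand of each word, the larger part of the domain lay after the peak. In the group of word 1 the domain reached a median of 1835 bp before the peak centre and 4017 bp after it, with the longer side after the peak in 921 of 1310 members (70.3%). The corresponding share was 82.9% for word 2, 73.0% for word 3, 65.0% for word 4, 72.2% for word 5 and 90.2% for word 6. The strand of words 1, 3 and 4 is shared within their peaks. Words 2, 5 and 6 are printed on the strand that comes first in alphabetical order. A direction common to these words is therefore not a result. Domains were widest in the group of word 6, with a median of 11400 bp and an interquartile range of 7800 to 16000 bp. Groups of words 1 and 3 had a median of 6400 bp.

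Few members were promoters. Only 188 members (6.56%, 5.71 to 7.52) had a protein-coding TSS within 1000 bp, against 47.1% of all autosomal peaks, and these reached 196 genes. The median distance from the peak centre to the nearest protein-coding TSS was 71.0 kb for members and 2.28 kb for all autosomal peaks. In all, 813 members (28.3%) lay in a protein-coding gene, and 592 of these touched no exon. Of the 188 members at a TSS, 13 were multi-copy, and of the 2680 others 2228 were.

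H3K4me3 was kept in Spen KO at most members. A Spen KO H3K4me3 peak overlapped 2404 of 2868 members (83.8%, 82.4 to 85.1), so 464 (16.2%) had none. Across all autosomal WT H3K4me3 peaks 23.6% had none. The share differed by score, taken as 4 classes of the WT list from lowest to highest. In the lowest class 176 of 488 members (36.1%, 31.9 to 40.4) were kept, against 33.7% of all autosomal peaks. In the second class it was 768 of 913 (84.1%, 81.6 to 86.3) against 74.0% (73.0 to 74.9). In the third class it was 1204 of 1211 (99.4%) against 98.3%, and in the highest class all 256 members were kept. The 11955 distal peaks without H3K27Ac that lay outside domains had a lower median score (15.2) and were kept in 59.0% of cases, and in the second class by score in 69.7% (68.3 to 71.1). Sets nearer to members in score were kept in similar shares. All 3355 multi-copy autosomal peaks, which include the multi-copy members, had a median score of 24.96 and were kept in 85.7% (84.4 to 86.8). Multi-copy members alone were kept in 86.4% (84.9 to 87.7). The 749 peaks within 1000 bp of a domain were kept in 79.8%.

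**Figure D2:**
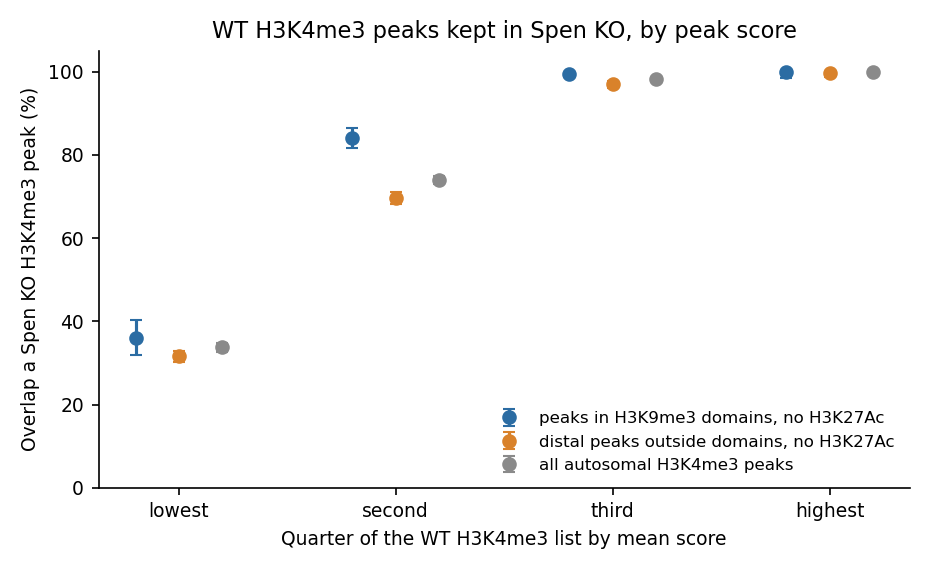
Percent of WT H3K4me3 peaks that overlapped a Spen KO H3K4me3 peak, by class of the WT list by mean score (1 to 4, from low to high), with Wilson 95% intervals. Members (blue) were kept in 36.1%, 84.1%, 99.4% and 100% of cases from the lowest to the highest class, and lay above all autosomal peaks (grey) by the most in the second class.

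Kept members ranked slightly lower in the Spen KO list, as did all kept peaks. Among the 2404 kept, the median percentile of the score within its own list was 54.4 in WT and 49.9 in Spen KO, and the median of the differences was -4.69 percentile points. Over all kept autosomal peaks the median difference was -4.23. Peaks without overlap in the other list were 23.6% of autosomal WT and 9.46% of autosomal Spen KO H3K4me3 peaks. Such WT peaks were mostly of low score, so the make-up of the lists can itself lower the rank in Spen KO. The Spen KO peaks at kept members were narrower, at 952 bp against 1069 bp in the median, and so were those at all kept autosomal peaks, at 1490 bp against 1872 bp.

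H3K9me3 was kept at most members, mainly away from the edge. A Spen KO H3K9me3 domain overlapped 2316 members (80.8%, 79.3 to 82.2), so 552 (19.2%) had none. Across all autosomal WT domains 12.3% had no overlap in Spen KO, but a domain is wider than a peak, so these shares are not like for like. Counted by domain, 2578 of the 2763 domains with a member (93.3%, 92.3 to 94.2) overlapped a Spen KO domain. For 363 of the 552 members without the mark (65.8%), the WT domain still overlapped a Spen KO domain elsewhere along its length, and for 189 it did not. Of members wholly inside the WT domain 89.9% kept H3K9me3, and of those centred outside it 46.2% did. At kept domains with members the median width went from 7200 bp to 5800 bp in Spen KO. Spen KO domains covered a median of 80.7% of the WT domain, against 81.5% for all kept autosomal domains, and 800 of the 2578 lay over 2 or more Spen KO domains, against 15.1% of all kept autosomal domains. Domains with members were wider. In the lowest of 4 classes of domain width, 80.4% of domains with a member and 73.3% of all autosomal domains were kept. In the highest class these shares were 99.2% and 99.1%.

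Both marks were kept at 1949 members (68.0%, 66.2 to 69.6). H3K4me3 alone was kept at 455 (15.9%), H3K9me3 alone at 367 (12.8%) and neither at 97 (3.38%). Members that lost H3K4me3 from the list were weak in WT, with a median score of 12.98 where H3K9me3 alone was kept and 12.88 where neither was, against 26.6 where both were kept. Members at a TSS kept both marks in 80 of 188 cases (42.6%, 35.7 to 49.7), and H3K4me3 alone in 77 (41.0%). For the other 2680 members these shares were 69.7% and 14.1%. Multi-copy members kept both marks in 74.7% of cases (72.9 to 76.5), and the 627 members outside multi-copy sequence in 43.7% (39.9 to 47.6). Among members at a TSS, 129 crossed 1 domain edge and 107 were centred outside the domain. Members centred outside were multi-copy in 36.4% and kept H3K9me3 in 46.2%, against 84.8% and 89.9% of members wholly inside. The part of position in these contrasts was not tested.

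The strongest promoters with both marks kept were those of Fcgr3, Ptprg and Kif2a. Fcgr3 encodes an Fc receptor for immunoglobulin G, and its member at chr1:172993579-172997607 had values of 106.2 and 96.0 in the WT libraries and 96.9 and 87.7 in the Spen KO libraries. The 2.6 kb H3K9me3 domain covered 5.51% of this peak. Ptprg, a receptor tyrosine phosphatase, had values of 71.6 and 67.8 in WT, against 56.6 and 40.4 in Spen KO. Kif2a, a microtubule-depolymerising kinesin, had values of 71.3 and 59.9 in WT, against 46.1 and 28.1 in Spen KO. All 3 peaks touched the domain by their margin, and the domain covered at most 14.8% of the peak. Kept H3K9me3 means overlap with the WT peak. At Fcgr3 the Spen KO domain ended at 172993600, short of the Spen KO H3K4me3 peak, which began at 172993658. At Ptprg these positions were 12385400 and 12385436, while at Kif2a the Spen KO domain and peak overlapped. At Ptprg and Kif2a both Spen KO values were below both WT values. Promoters were named by their WT score, a choice that alone favours lower values in Spen KO.

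Promoters that kept H3K4me3 alone were led by Camk2b, Sncb and Ints1. Camk2b, a subunit of calcium/calmodulin-dependent kinase II, had values of 74.6 and 69.2 in WT, against 56.6 and 30.2 in Spen KO. Sncb, which encodes beta-synuclein, had 61.2 and 62.5 in WT, against 53.9 and 23.3 in Spen KO. Ints1, a subunit of the Integrator complex, had 38.2 and 83.4 in WT, against 31.8 and 64.2 in Spen KO, so the libraries of each genotype were further apart than the genotypes. The domains reached 1.77%, 5.92% and 28.2% of these peaks.

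Promoters without H3K4me3 in the Spen KO list had WT scores of at most 24.2, close to the median of all peaks. Where H3K9me3 alone was kept, Eps8l1 led with 19.5 and 28.9, followed by Lhcgr, the receptor for luteinizing hormone, with 13.6 and 22.4, and Mrpl15, a mitochondrial ribosomal protein, with 15.2 and 17.4. Lhcgr lay wholly inside a domain of 8.6 kb. Where neither mark was kept, the shared start of 4921515J06Rik and Gm9857 had 20.1 and 17.4, Bcl3, a cofactor of NF-κB, had 12.9 and 20.4, and Cd70, the ligand of CD27, had 8.75 and 20.4.

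Away from promoters, the strongest member was chr4:145426073-145428435, with 95.9 and 74.99 in WT, against 76.0 and 74.7 in Spen KO. Its centre lay 15853 bp from the edge of the 78.4 kb domain on chromosome 4, kept both marks and overlapped a Spen KO H3K27Ac peak. The next with both marks kept were chr2:95100019-95101491, a member of the group of word 1 with 68.4 and 70.9 in WT, and chr16:3083657-3085252, with 44.0 and 93.6. With H3K4me3 alone kept, chr12:24317904-24320230 led with 63.5 and 49.0 in WT, against 30.1 and 26.4 in Spen KO, followed by chr12:19049519-19051526 and chr17:32236061-32237904. With H3K9me3 alone kept, the 3 strongest were chr16:91199213-91200823 (30.9 and 31.7), chr6:7437128-7437850 (26.5 and 28.9) and a member in an intron of Fam38b (26.9 and 24.1). With neither kept they were chr9:16410998-16412399 (23.9 and 35.8), chr7:7174946-7175635 (25.2 and 28.9) and chr10:103103089-103103909 (25.2 and 19.9). At the 3 members with H3K4me3 alone kept, both Spen KO values were below both WT values. These members too were named by WT score, so the choice itself favours lower Spen KO values.

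Gene lists gave few members, and lists differed in how many of their genes with an H3K4me3 peak had one. Kept counts of each list stand beside 83.8% for H3K4me3 and 80.8% for H3K9me3 over all members. Of 40 autosomal imprinted genes in the annotation, 27 had an H3K4me3 peak and 8 had a member (Gnas, H13, Inpp5f, Kcnq1, Mcts2, Mest, Nespas and Zim1). These genes held 6 members, 5 of which kept H3K4me3 and 3 H3K9me3, and none was multi-copy. The member at Kcnq1, a potassium channel gene, had 41.9 and 40.2 in WT, against 56.8 and 36.0 in Spen KO and kept H3K4me3 alone. Inpp5f, a phosphoinositide phosphatase gene with an imprinted transcript, had 48.6 and 28.4 in WT, against 56.6 and 36.4 in Spen KO, beside a domain of 12.6 kb that was kept. Zim1 kept H3K4me3 alone, with 21.0 and 16.6 in WT, against 24.9 and 14.6 in Spen KO. Mest lay wholly inside a domain of 12.8 kb and kept both marks, with 10.3 and 19.1 in WT, against 15.4 and 12.1 in Spen KO. The ranges of both genotypes overlapped at all 4 genes.

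Zinc finger genes, which include many repressors of repeats, had 19 members at 18 of 424 genes, of which 371 had any H3K4me3 peak. Of these members 16 kept H3K4me3, 16 kept H3K9me3 and 14 kept both, and 7 had a TSS within reach. Over all members 83.8% kept H3K4me3 and 80.8% kept H3K9me3. The strongest was at Zfp575 and Ethe1, with 63.5 and 49.8 in WT, against 31.1 and 28.8 in Spen KO. Zfp629 had 60.3 and 31.6 in WT, against 64.5 and 28.1 in Spen KO, Zfp961 28.4 and 52.1 in WT, against 43.0 and 20.5 in Spen KO, and Zfp236 61.8 and 18.6 in WT, against 40.04 and 15.8 in Spen KO. All 4 kept both marks, and Zfp961 and Zfp236 also overlapped a Spen KO H3K27Ac peak. Only at Zfp575 did both Spen KO values lie below both WT values, and these 4 were also named by WT score.

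Of 24 protocadherin genes of the clustered arrays, 23 had an H3K4me3 peak and 2 had a member (Pcdha11 and Pcdhgc5). These held 5 members, of which 3 kept H3K4me3 and 4 H3K9me3. The strongest, in an intron of Pcdhgc5, had 35.7 and 30.1 in WT, against 21.0 and 15.9 in Spen KO. The next 3 were in the long gene body of Pcdha11, with scores of 31.8, 19.97 and 14.2. Olfactory and vomeronasal receptor genes, which act mainly in sensory neurons, held 9 members at 9 of 1432 genes, of which 22 had any H3K4me3 peak. All 9 kept H3K4me3, 4 kept H3K9me3 and 6 were multi-copy. The strongest were at Vmn1r48, Olfr631, Vmn2r27 and Olfr56, with scores of 39.7, 35.9, 33.4 and 32.5. No member lay at the germline genes or the lineage regulators listed, of which 29 and 18 were in the annotation on autosomes. Of these, 20 and 18 had an H3K4me3 peak.

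Sequence groups differed in which mark was kept. In the groups of words 1, 2 and 3, H3K4me3 was kept at 92.4%, 91.5% and 91.0% of members and H3K9me3 at 84.6%, 98.0% and 79.3%. The group of word 4 kept H3K4me3 in 70.8% (62.7 to 77.8) and H3K9me3 in 86.9%. Its median score was 17.8, against 26.2 for the group of word 1. The 709 members without any of the words kept H3K4me3 in 67.1% and H3K9me3 in 65.2%, with a median score of 16.9.

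**Figure D3:**
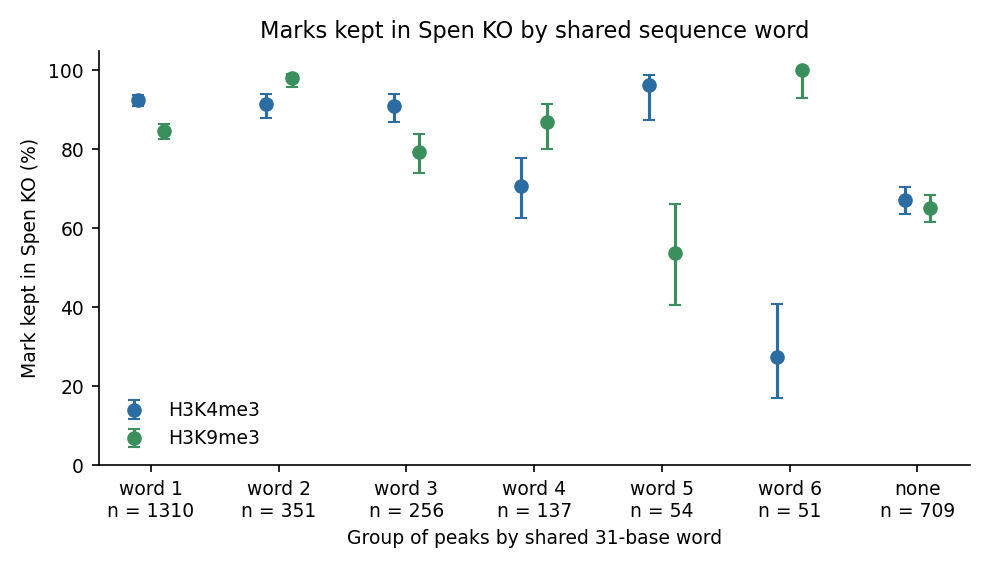
Percent of members that overlapped a Spen KO H3K4me3 peak (blue) or H3K9me3 domain (green), for the 6 groups by shared 31-base word and for members without these words, with Wilson 95% intervals. Word 6 had the lowest kept share of H3K4me3 (27.5%) beside H3K9me3 kept at 100%, and word 5 the lowest kept share of H3K9me3 (53.7%) beside 96.3% for H3K4me3.

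Word 6, printed above, marked peaks that kept H3K9me3 and mostly lacked H3K4me3 in the Spen KO list. The word has 66 copies in the genome, and 53 WT H3K4me3 peaks held it, 51 of them members on 18 chromosomes. H3K4me3 was kept at 14 of 51 (27.5%, 17.1 to 40.9), and at 15 when a gap of up to 1000 bp was allowed. H3K9me3 was kept at all 51. In WT, values in 1 library ran from 8.30 through a median of 15.8 to 45.0, and in the other from 7.74 through 16.2 to 32.5. The group was weak, with a median score of 17.1, but within the second class by score 7 of 29 (24.1%) were kept, against 84.1% of all members in that class. Where H3K4me3 was kept, the median percentile was 39.6 in WT and 11.5 in Spen KO, against 54.4 and 49.9 over all kept members. The domain around kept H3K9me3 was 11400 bp wide in WT and 11000 bp in Spen KO at the median. The strongest without H3K4me3 in Spen KO were chr19:38450055-38451467, with values of 17.6 and 25.4, and chr15:76395570-76396943, with 20.1 and 22.4. The strongest that kept it were chr8:93410131-93412894 in Chd9, with 45.0 and 18.2, and chr4:133715715-133717532 in Ccdc21, with 27.2 and 32.5. These 4 were chosen after their values were seen.

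Word 5 marked peaks that kept H3K4me3 and often lacked H3K9me3 in the Spen KO list. Its copies were nearly all in H3K9me3, with 3801 of 3907 autosomal loci (97.3%) in a WT domain, where copies within 1000 bp were joined to a single locus, and 98 loci (2.51%) carried WT H3K4me3. Of the 54 members in this group, 52 kept H3K4me3 and 29 kept H3K9me3 (53.7%, 40.6 to 66.3). By locus, H3K9me3 was kept at 24 of 49 copies with both WT marks (49.0%, 35.6 to 62.5) and at 3697 of 3752 copies with WT H3K9me3 and no H3K4me3 (98.5%, 98.1 to 98.9). The strongest members without H3K9me3 in Spen KO were chr16:19082842-19084142, centred 292 bp beyond the edge of a 16.6 kb domain, with 36.1 and 37.3, and chr14:43390654-43391600, with 36.4 and 29.3. Those with it were chr14:44040214-44041174, with 45.8 and 34.5, and chr7:20696491-20697469, with 30.9 and 37.3. The domains and peaks of these copies were not matched for strength, and these 4 members were chosen after their values were seen.

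Copies with both WT marks kept H3K9me3 in shares of 80.6% for word 1, 95.4% for word 2, 84.2% for word 3 and 80.3% for word 4. Copies of the same words with H3K9me3 and no H3K4me3 in WT kept it in 84.1%, 96.9%, 90.2% and 88.9%. The intervals overlapped for each of these words, for words 3 and 4 only at their ends. Word 6 had the opposite order, with 51 of 51 copies (93.0 to 100) against 11 of 12 (64.6 to 98.5), and these intervals overlapped as well. For H3K4me3, too, the order differed between words. Copies of word 1 in WT domains kept it in 76.4% (74.1 to 78.6) and those outside in 69.1% (65.6 to 72.3), while for word 4 the shares were 78.9% (74.6 to 82.6) and 87.0% (83.1 to 90.1). Kept shares run from WT to Spen KO only. H3K9me3 in WT alone was found at 383, 19, 204 and 100 loci of words 1 to 4. In Spen KO alone it was found at 398, 3, 312 and 101, so words 1, 3 and 4 had no net loss. For word 5 these counts were 80 and 23.

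**Figure D4:**
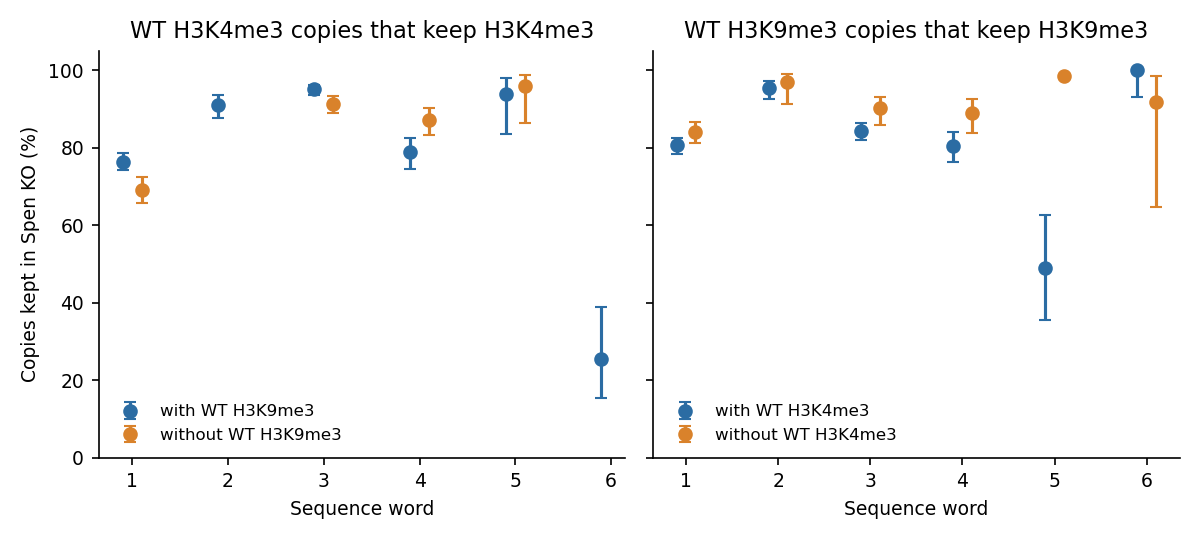
Percent of autosomal copies of each word that kept a mark in Spen KO, with Wilson 95% intervals. Left, copies with WT H3K4me3, with (blue) or without (orange) WT H3K9me3. Right, copies with WT H3K9me3, with (blue) or without (orange) WT H3K4me3. Classes of under 10 copies are left out. H3K9me3 at word 5 was kept at 49.0% of copies with WT H3K4me3 and at 98.5% of copies without.

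H3K27Ac in Spen KO was found mainly at members outside multi-copy sequence. A Spen KO H3K27Ac peak overlapped 36 members (1.26%, 0.908 to 1.73), against 4.56% of all autosomal peaks without WT H3K27Ac. Outside multi-copy sequence it overlapped 31 of 627 members (4.94%, 3.50 to 6.93), close to that background, and in multi-copy sequence 5 of 2241 (0.223%). All 36 kept H3K4me3, 23 kept H3K9me3, and 9 had a TSS within reach. For 6 of the 36 a WT H3K27Ac peak lay within 1000 bp. After the chromosome 4 member described above, the strongest were chr13:66050681-66052934, with 74.9 and 35.3 in WT, and the member at Gm7461, chr8:4675196-4679315, with 58.7 and 42.8.

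Oct4, the pluripotency factor, was found at few members. Its peaks overlapped 13 (0.453%) and 120 (4.18%) members in the WT libraries and 34 (1.19%) and 36 (1.26%) in the Spen KO libraries. The same libraries overlapped 4.36%, 4.84%, 3.35% and 3.35% of all autosomal H3K4me3 peaks. Both Spen KO values lay between the WT values. In the second WT library 98 members were found in no other library, and 90 of its 120 were multi-copy. Only 3 members were found in all 4 libraries. At members the median fold enrichment of Oct4 peaks was 5.64 to 5.97 in the 4 libraries, against 6.23 to 6.55 over the whole lists. With 2 libraries per genotype no test was made.

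The same rule applied to the Spen KO lists chose 2482 peaks, or 8.28% of autosomal Spen KO H3K4me3 peaks. Of these, 1893 (76.3%) overlapped a WT member, and 1894 of 2868 WT members (66.0%) overlapped one of them. In 405 of the Spen KO peaks (16.3%) no WT H3K9me3 domain was present, and in 188 (7.57%) no WT H3K4me3 peak was, beside 9.46% of all autosomal Spen KO H3K4me3 peaks without one. A TSS lay within reach of 92 (3.71%).

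Members were spread over all autosomes. Chromosome 14 had the largest share of its H3K4me3 peaks as members (12.5%, 152 of 1213), chromosome 1 had 12.5% (237 of 1896), and chromosome 11 the smallest (3.40%, 92 of 2702). Per 10 Mb of sequence, counts ran from 7.33 on chromosome 9 to 14.4 on chromosome 7. H3K4me3 was kept at 69.1% of members on chromosome 17 and at 88.9% on chromosome 5, the lowest and highest of the 19 autosomes.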

How the data were processed

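Lists of ChIP-seq peaks from HATX mESCs, WT or Spen KO clone 2, were used. Per the submitters' notes and the methods, the authors mapped reads to mm9 with Bowtie2, kept unique pairs without duplicates (Picard), and ran MACS2 with input as background. For H3K4me3 and H3K27Ac, the authors deposited peaks with an irreproducible discovery rate under 0.05 between 2 libraries, with 1 value per library whose MACS2 column is not stated. For H3K9me3, the deposited lists hold domains with a score, and how they were called is not stated. Each of the 4 Oct4 libraries has its own deposited list, with fold enrichment over input per peak. A second mapping placed multimapping reads randomly, and which mapping gave each list is not given in the sources used here.

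A mark was kept when a Spen KO interval overlapped by 1 bp. Coordinates were counted from 1. Genes came from GENCODE M1 on mm9 (NCBIM37), whose sequence also gave the 31-base words, counted on both strands. Intervals of shares are Wilson 95% intervals and describe counting error alone. No test was made: the histone marks came as 1 list of calls per genotype, and the 2 Oct4 lists per genotype were described only. Members, gene lists and words were chosen with earlier results of these data known. The 3 members with the highest score in each class of fate and promoter, the 4 highest of each of 6 gene lists and the 3 domains with most members were named, and the members named for words 5 and 6 were added. Overlap and word functions were tested on simulated data. Python 3.11.15, numpy 2.4.6 and pandas 2.3.3 were used. Alternatives covered overlap, gap, list length, peak strength, distance, gene types, copies and left-out libraries.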

Additional observations from a re-analysis of the deposited data

How the results depend on the processing

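Of 40 alternatives, 15 left the value within its counting interval or the count within 1.5 times, and 25 moved it. Members numbered 1467 in the stronger 50% of the WT list by score. There, H3K4me3 was kept at 99.5%, H3K9me3 at 83.5% and both at 83.2%, and 60.3% were wholly inside the domain. A gap of up to 1000 bp gave 85.7% for H3K4me3, 89.1% for H3K9me3, 76.5% for both and 1.99% for Spen KO H3K27Ac. Lists of equal length gave 87.0% for H3K4me3 and 77.3% for H3K9me3. With at least 50% of the peak covered by Spen KO domains, H3K9me3 was kept at 72.9%. With at least 50% covered by the WT domain, H3K9me3 was kept at 86.1% and both at 71.9%. Outside multi-copy sequence, an alternative chosen after seeing the data, H3K4me3 was kept at 74.6%, H3K9me3 at 60.1% and both at 43.7%, and Spen KO H3K27Ac was at 4.94%. Wholly inside the domain, also added, H3K9me3 was kept at 89.9%. Joined domains gave 69.0% wholly inside. A TSS lay within 5000 bp of 10.5%, and one of any gene type within 1000 bp of 9.45%. Multi-copy shares were 80.8% at 5 copies and 72.5% at 50. Oct4 in at least 1 library was at 5.75% of members, and at 2.34% to 5.51% with each library left out, the lowest without the second WT library. The cause of these shifts was not tested. No paired analysis was possible because no result comes from a test. Depth is unknown, so absence from a list can mean a signal slightly below the threshold of the caller.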
